A study of Peniophora incarnata with 12 samples.

Results

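The genes described here encode the mitochondrial ribosome and the enzymes that work with it in Peniophora incarnata strain T-7, a white-rot basidiomycete. They were chosen by their descriptions, which had to name a 37S or 54S ribosomal protein, or a ribosomal protein, tRNA ligase or elongation factor together with the mitochondrion. The rule found 82 of the 16059 genes with deposited values: 27 proteins of the small subunit, 37 of the large subunit, 15 tRNA ligases and 3 elongation factors. The wild-type fungus had been grown for 30 days on powdered poplar wood (a hardwood), Chinese fir wood (a softwood) or rice straw, or on the control medium PDA (by its usual meaning, potato dextrose agar). Each condition had 3 biological replicates of mycelium, and poly(A) RNA was sequenced from stranded libraries. The files give no more on how the replicates were separated, so the p-values measure the spread between these libraries. Each library rested on 23398461 to 31132066 reads.

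Mitochondria carry their own ribosomes, which translate the few messenger RNAs transcribed from mitochondrial DNA. In fungi these encode mostly core subunits of the respiratory chain and of the ATP synthase. The ribosomal proteins, the enzymes that charge mitochondrial tRNAs with amino acids and the elongation factors are encoded in the nucleus, made in the cytosol and imported. The small subunit reads the messenger, the large subunit forms the peptide bond and holds the exit tunnel, and the elongation factors bring aminoacyl-tRNA to the ribosome and move it along the messenger.

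Transcripts were compared as fragments per kilobase of coding length per 1e6 reads (FPKM), so that levels of different genes are per length. The median of the members' mean over the 12 libraries was 55.7 FPKM, against 12.4 FPKM over all tested genes. The elongation factor Tu gene TUF1 (A04087), whose product carries aminoacyl-tRNA to the ribosome, was the most abundant member at a mean of 560 FPKM. The median was 71.8 FPKM for small subunit proteins, 61 FPKM for large subunit proteins and 17.5 FPKM for tRNA ligases. The most abundant large subunit genes were MRPL28 (A04682) at a mean of 180 FPKM and rml2 (A08142) at 178 FPKM. In the small subunit they were sws2 (A10713) and MRP2 (A03155), both at 152 FPKM. The tRNA ligases were led by the aspartate enzyme msd1 (A03133) at a mean of 41.6 FPKM. Genes were tested where at least 3 libraries reached 1 FPKM, and 80 of the 82 members passed. The members that did not pass were a methionine ligase gene, 93G11.130 (A07647), at 0.169 to 3.05 FPKM, and a tyrosine ligase gene, MSY1 (A05202), listed above 0 only in rice straw replicate 1. Gene names and roles are those of the database match given with the data, many of them from Saccharomyces cerevisiae or Schizosaccharomyces pombe.

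The libraries of poplar wood stood apart from each other in these genes. The members' median level there was 43.7, 76 and 113 FPKM in replicates 1, 2 and 3. The libraries of Chinese fir wood gave 41.8, 34.8 and 41.8 FPKM, those of rice straw 52.6, 54.4 and 58.7 FPKM, and those of PDA 43.3, 44.7 and 46.5 FPKM. Replicate 1 of poplar wood thus lay within the range of the other groups, and replicates 2 and 3 above it. Of the 80 tested members, 79 were lowest in replicate 1 of poplar wood, 77 were highest in replicate 3, and 76 had replicate 2 in between. The ratio of replicate 3 to replicate 1 had a median of 2.62 and ran from 1.27 for MRPL17 (A16582) to 4.57 for the phenylalanine ligase gene MSF1 (A03996). On the log2 scale the median difference between these replicates was 1.35 for the members and 0.27 for all tested genes. It was also above that of all genes for cytosolic ribosomal proteins (1.0), oxidative phosphorylation (0.92), mitochondrial protein import (1.24) and cytosolic tRNA ligases (1.54). The median SD of a member was 0.69 on poplar wood and 0.10 to 0.16 in the other groups. The tests gave each gene 1 spread shared by the 4 groups. At these SDs, tests with poplar wood understate the spread there, and tests without poplar wood overstate the spread of their own groups.

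In each other group, 1 library was near a weighted sum of the remaining ones over all 13974 tested genes: Chinese fir wood replicate 1, rice straw replicate 3 and PDA replicate 2. Measured against the best weighted sum of their companions' reads, they had a chi-square per gene of 5.80, 7.48 and 4.77, and the remaining libraries of the same groups had 24.4 to 48.3. Among the 80 members these libraries lay between their companions in 62, 36 and 53. For rice straw replicate 3 fewer members lay between than outside, but replicates 1 and 2 lay between in fewer still, 22 and 22. Counts of called members are therefore also given without them, as the intermediate libraries. A member was called at an adjusted p under 0.05 over all 13974 tested genes by limma and a log2 fold change of at least 1 in either direction.

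**Figure D1:**
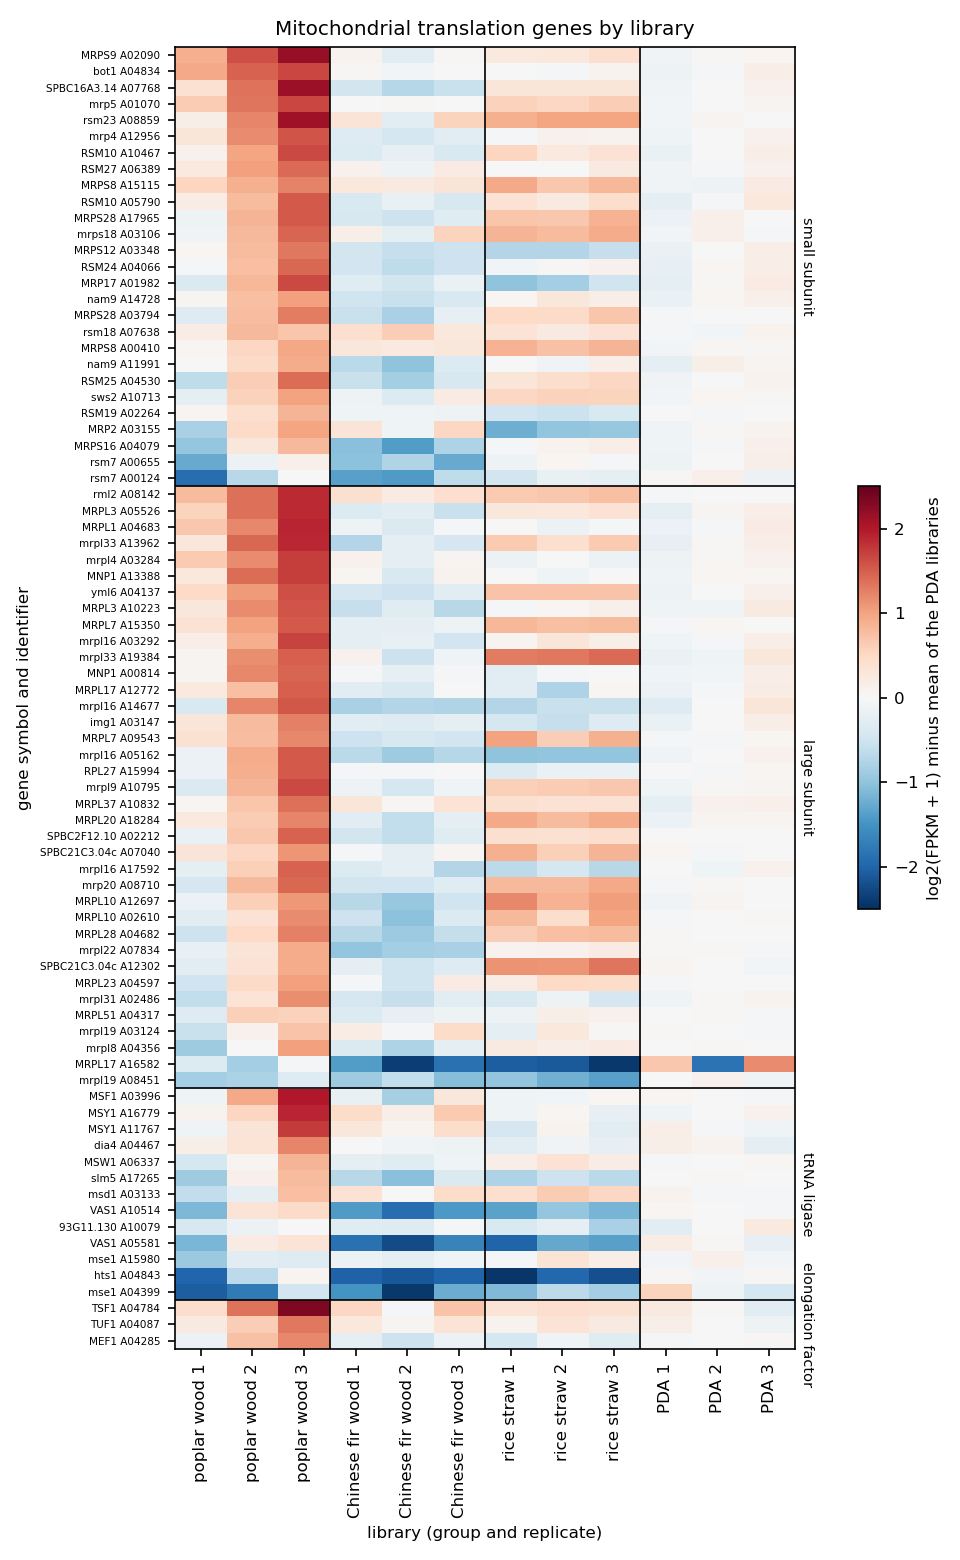
Heat map of the 80 tested members in the 12 libraries, grouped by role and ordered by their change on poplar wood. Colour gives log2(FPKM + 1) minus the gene's mean on PDA. Poplar wood replicate 3 is the reddest column in the subunit blocks, replicate 1 is pale, and hts1 and both VAS1 genes are blue on Chinese fir wood and rice straw.

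Growth on poplar wood was compared with PDA. The members that rose on poplar wood were ribosomal proteins of both subunits and an elongation factor, and the member that fell was a tRNA ligase. Of the 80 members 15 rose and 1 fell, with a median log2 fold change of 0.68, while the median of all tested genes was -0.18. Over all genes tested 8.30% rose and 17.1% fell, against 18.8% and 1.25% of the members. In RNA from whole mycelium, a change in the share of active cells and a change in RNA per cell cannot be told apart. The called members were 6 of 27 small subunit proteins, 8 of 37 large subunit proteins and 1 of 3 elongation factors, all higher, and 1 of 13 tested tRNA ligases, which was lower. The role medians were 0.72 for both subunits, 0.71 for elongation factors and -0.04 for tRNA ligases. In 28 members every poplar wood library lay above every PDA library (35% against 17.1% of all genes), and in 3 every library lay below (3.75% against 30.8%).

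Among small subunit proteins the largest rise was that of MRPS9 (A02090), described as protein S9, a family of the head of the subunit. It stood at 73.1, 121 and 181 FPKM on poplar wood and at 37, 40.2 and 40.3 FPKM on PDA. Even the lowest poplar wood library was above all PDA libraries, with a log2 fold change of 1.56 (SE 0.27, limma adjusted p = 0.000708). Protein S35, bot1 (A04834), had 80.3, 117 and 133 FPKM against 37.7, 40.5 and 46.2 FPKM. Its log2 fold change of 1.36 had the smallest adjusted p of the members in this comparison (SE 0.19, limma adjusted p = 0.000181), and its groups did not overlap either. The gene SPBC16A3.14 (A07768), a putative S26A, rose by 1.29, mrp5 (A01070), a relative of S5, by 1.21, rsm23 (A08859) by 1.16 and mrp4 (A12956), a relative of S2, by 1.02. All 6 had groups without overlap, and rsm23 had the widest spread of them on poplar wood, at 75.7, 160 and 298 FPKM.

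Among large subunit proteins rml2 (A08142), a relative of L2, which lies beside the site of peptide bond formation, had the largest rise. Its level was 188, 283 and 396 FPKM on poplar wood and 107, 109 and 110 FPKM on PDA. The PDA libraries were nearly equal, and the log2 fold change was 1.34 (SE 0.23, limma adjusted p = 0.000694). MRPL3 (A05526) rose by 1.27, MRPL1 (A04683), of the family that forms a mobile stalk at the tRNA exit, by 1.26, and mrpl33 (A13962) by 1.19. The others that rose were mrpl4 (A03284), MNP1 (A13388), yml6 (A04137) and the other MRPL3 gene (A10223), with 1.18, 1.13, 1.05 and 1.01. MNP1 is the L12 protein of the stalk where translation factors dock, and yml6 is a relative of L4, which lines the exit tunnel. The large subunit also held members that did not follow: MRPL17 (A16582) had 9.31, 6.28 and 11.8 FPKM on poplar wood and 19.8, 2.63 and 28.6 FPKM on PDA, and was not called. PDA replicate 2 was far below the other PDA libraries for this gene.

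The elongation factor that rose was TSF1 (A04784), encoding factor Ts, which exchanges the guanine nucleotide on factor Tu. It had 55.1, 105 and 208 FPKM on poplar wood and 47.6, 41.5 and 33.8 FPKM on PDA. The groups did not overlap, although the lowest poplar wood library lay close to the highest PDA library, and the log2 fold change was 1.37 (SE 0.38, limma adjusted p = 0.0121). TUF1 had 513, 678 and 1096 FPKM on poplar wood and 486, 437 and 404 FPKM on PDA, with 527, 464 and 562 FPKM on Chinese fir wood and 469, 562 and 518 FPKM on rice straw. MEF1 (A04285), encoding factor G, which moves the ribosome along the messenger, had 45.7, 84.5 and 118 FPKM on poplar wood and 49.4, 51.1 and 51.5 FPKM on PDA. Neither was called in any of the 6 comparisons, and TUF1 did not pass the F test among the 4 groups (limma adjusted p = 0.0856), while MEF1 did (adjusted p = 0.0371).

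**Figure D2:**
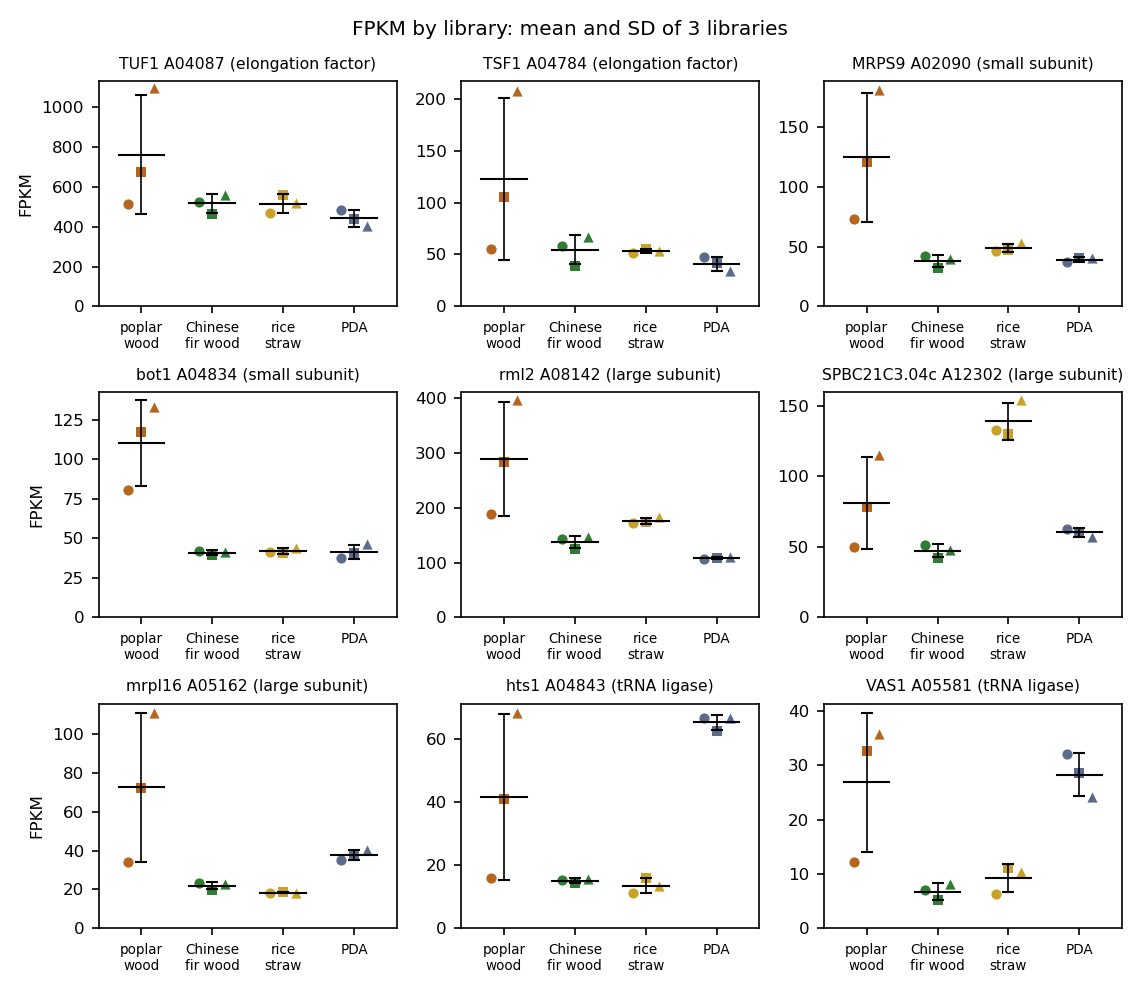
FPKM of 9 members in each library (circle, square and triangle for replicates 1, 2 and 3), with the mean as a line and the SD of 3 libraries as a bar, on axes that start at 0. MRPS9, bot1 and rml2 are above PDA in every poplar wood library, A12302 is highest on rice straw, and hts1 and VAS1 are low on Chinese fir wood and rice straw and spread on poplar wood.

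The count for poplar wood against PDA depended on replicates 1 and 3 of poplar wood: 43 members rose without replicate 1, and without replicate 3 there were 3, namely MRPS9, bot1 and rml2. Here and below, the share of all genes called was not counted in fits that left libraries out, so such counts have no background. The median log2 fold change of 0.68 was 1.03 without replicate 1 and 0.33 without replicate 3. Without the intermediate libraries 7 rose (MRPS9, bot1, rml2, MRPL1, mrp5, mrpl4 and MRPL3 A05526) and 1 fell, which was MRPL17 (A16582) and not mse1. With the libraries scaled by the median of ratios 28 of 79 rose (background 11.3%) and 1 fell (background 12.6%), and the median was 0.89.

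The comparison for the softwood, Chinese fir wood, was also with PDA. No member rose and 8 of the 80 fell, with a median log2 fold change of -0.31, and the median of all tested genes was -0.51. Over all genes 5.91% rose and 24.5% fell, so that 10% of members falling lies under the background. The members that fell were 4 of 13 tested tRNA ligases, 3 of 27 small subunit proteins and 1 of 37 large subunit proteins. These were 30.8%, 11.1% and 2.7%, so that the share of the ligases was near the 24.5% of all genes. In 46 members every Chinese fir wood library lay below every PDA library (57.5% against 56.7% of all genes) and in 5 above (6.25% against 14.2%). The sign of the median turned with the scaling: after median-of-ratios scaling it was 0.25, with 1 member higher (background 11.7%) and 4 lower (background 11.0%), and the median of all genes was then -0.02.

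The 4 tRNA ligases that fell were called under both scalings. The histidine ligase gene hts1 (A04843) had 15.4, 14.3 and 15.6 FPKM on Chinese fir wood and 66.5, 62.5 and 66.6 FPKM on PDA. The groups were narrow and far apart, and the log2 fold change was -2.04 (SE 0.38, limma adjusted p = 0.00102). The valine ligase gene VAS1 (A05581) had 6.98, 5.18 and 8.12 FPKM against 32, 28.5 and 24.2 FPKM. It fell by 1.92 (SE 0.35, limma adjusted p = 0.000919), and the other VAS1 gene (A10514) fell by 1.58. The glutamate ligase gene mse1 (A04399) had 5.72, 2.56 and 7.07 FPKM against 27.0, 16.5 and 13.1 FPKM, a fall of 1.72 (SE 0.42, limma adjusted p = 0.00552). It was also the member that fell on poplar wood, by 1.43 (adjusted p = 0.0173), a call lost without poplar wood replicate 2, PDA replicate 1 or the intermediate libraries. The calls of rsm7 (A00124 and A00655) and MRPS16 (A04079), with log2 fold changes of -1.14, -1.01 and -1.07, were lost after median-of-ratios scaling. That of MRPL17 (A16582), -1.87, was also lost, and its groups overlapped through PDA replicate 2. Leaving out replicate 2 of Chinese fir wood or replicate 3 of PDA reduced the count of falls to 5, and leaving out the intermediate libraries to 4 (hts1, both VAS1 genes and MRPL17).

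On rice straw, the non-woody substrate, the members split. Of the 80 members 3 rose and 6 fell relative to PDA (3.75% and 7.5%, against 6.81% and 14.1% of all genes), with a median log2 fold change of 0.14 against -0.25 for all tested genes. All 3 rises were large subunit proteins (3 of 37), a share of 8.11% that was near the 6.81% of all genes. The protein L34 gene SPBC21C3.04c (A12302) had 133, 130 and 154 FPKM on rice straw and 63.0, 60.6 and 57.2 FPKM on PDA. The rice straw libraries were more than 2 times the PDA libraries, and the log2 fold change was 1.19 (SE 0.25, limma adjusted p = 0.00311). The L33 gene mrpl33 (A19384) had 72.1, 73.2 and 78.1 FPKM against 25.5, 26.7 and 35.1 FPKM, a rise of 1.34 (SE 0.32, limma adjusted p = 0.0062). The L10 gene MRPL10 (A12697) had 109, 85.9 and 97.4 FPKM against 44.2, 49.3 and 47.2 FPKM, a rise of 1.03 (SE 0.27, limma adjusted p = 0.00981). These 3 genes were also above every PDA library in each rice straw library.

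The falls on rice straw again included hts1, at 11.2, 15.9 and 13.4 FPKM (log2 fold change -2.2, SE 0.38, limma adjusted p = 0.000946). VAS1 fell by 1.54 (A05581) and 1.16 (A10514), MRPL17 (A16582) by 2.2, mrpl19 (A08451), a gene at 1.88 to 2.71 FPKM on rice straw, by 1.19, and MRP2 (A03155) by 1.05. In 36 members the rice straw libraries lay above all PDA libraries (45% against 20.9%) and in 19 below (23.8% against 43.9%). After median-of-ratios scaling 16 rose (background 10.0%) and 3 fell (background 8.25%), with a median of 0.42. The falls of MRP2, mrpl19 (A08451) and VAS1 (A10514) were not called after that scaling, and MRP2 was called in 5 of the 12 fits that each left out 1 library. The count of falls was 3 without PDA replicate 1, while with the intermediate libraries left out 0 rose and 2 fell (hts1 and MRPL17).

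**Figure D3:**
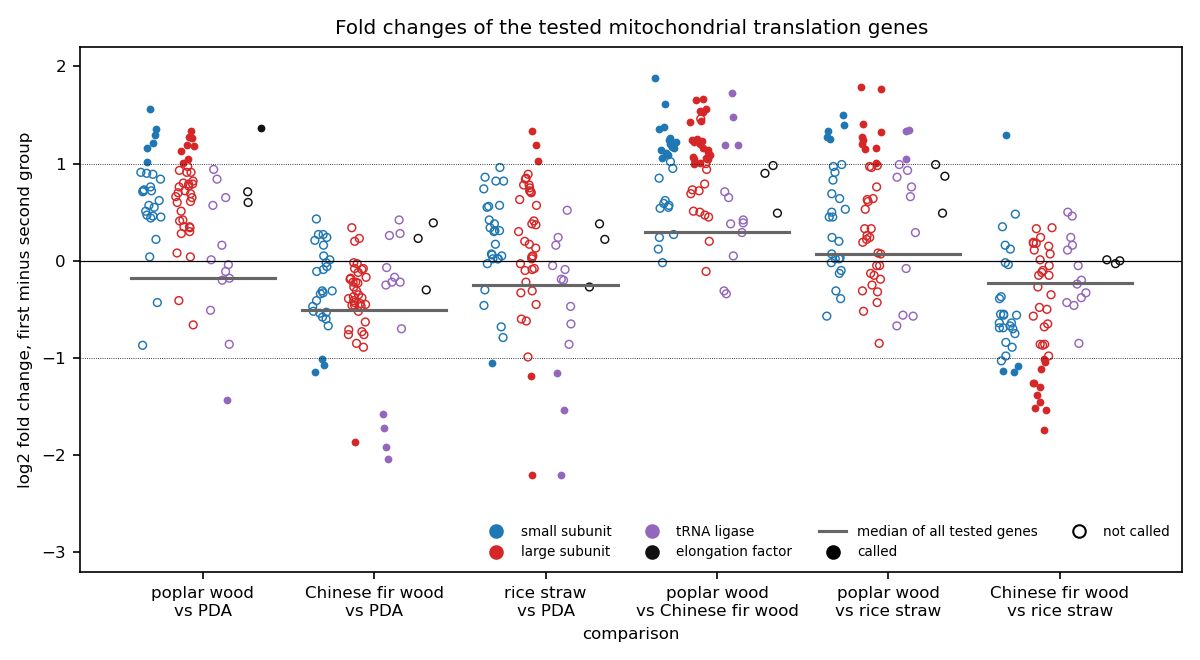
Log2 fold changes of the 80 tested members in the 6 comparisons, 1 point a gene, coloured by role and filled where called. Grey lines give the median of all tested genes. The points lie mostly above that line in every comparison except Chinese fir wood against rice straw, where they lie mostly below it. The lowest points on Chinese fir wood and rice straw against PDA include the purple tRNA ligases hts1 and VAS1 as well as the large subunit gene MRPL17 (A16582).

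The substrates were then compared with each other. Poplar wood and Chinese fir wood differed in 43 of the 80 members, all higher on poplar wood (53.8%, against 17.5% of all genes higher and 6.73% lower). They were 15 small subunit proteins, 24 large subunit proteins and 4 tRNA ligases, and the median log2 fold change was 1.05 against 0.30 for all tested genes. SPBC16A3.14 had 88.1, 174 and 297 FPKM on poplar wood and 48.2, 40.4 and 45.0 FPKM on Chinese fir wood, the largest difference at 1.88 (SE 0.33, limma adjusted p = 0.000897). Both mrpl16 genes of protein L16, A14677 and A05162, were higher on poplar wood by 1.56 and 1.53. For A05162 the values were 34.1, 72.2 and 111 FPKM on poplar wood and 23.3, 19.8 and 22.6 FPKM on Chinese fir wood. Every poplar wood library was above every Chinese fir wood library in 45 members (56.2% against 31.9%). The count of 43 was 14 without poplar wood replicate 3, 24 without the intermediate libraries, and 12 after median-of-ratios scaling (background 9.65% higher, 11.4% lower), where the median was 0.70.

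Against rice straw 18 members were higher on poplar wood and 0 lower by limma (22.5%, against 14.4% of all genes in each direction), with a median of 0.51 against 0.07. At an adjusted p under 0.05 alone 31 were higher and 2 lower, against 24.6% and 22.2% of all genes. The libraries did not overlap in 29 members higher on poplar wood (36.2%, against 25.9% of all genes) and in 2 lower (2.5%, against 23.8%). The decoding protein of the small subunit, MRPS12 (A03348), had 21.7, 37 and 53.8 FPKM on poplar wood and 12.2, 12.3 and 13.7 FPKM on rice straw, a difference of 1.40 (SE 0.26, limma adjusted p = 0.00111). The gene mrpl16 (A05162) had 18.2, 18.5 and 18.4 FPKM on rice straw and differed by 1.77 (SE 0.32, limma adjusted p = 0.000846). Neither pair of groups overlapped. MRP17 (A01982) differed by 1.5 and bot1 by 1.34. The count was 35 without poplar wood replicate 1, 8 without replicate 3, where 2 were lower, and 10 without the intermediate libraries. The median of 0.51 was 0.78 without poplar wood replicate 1 and 0.21 without replicate 3.

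Chinese fir wood had 14 members lower and 1 higher than rice straw (17.5% and 1.25%, against 14.2% and 5.70% of all genes), with a median of -0.45 against -0.23. Of the 14, 11 were large subunit proteins and 3 small subunit proteins. MRPL10 (A12697) had 28.5, 23.9 and 33.0 FPKM on Chinese fir wood, against the 85.9 to 109 FPKM on rice straw, and differed by -1.74 (SE 0.27, limma adjusted p = 0.00042). SPBC21C3.04c (A12302) differed by -1.54, mrpl33 (A19384) by -1.52 and MRPL28 (A04682) by -1.45. MRP2 (A03155) went the other way, with 189, 141 and 217 FPKM on Chinese fir wood and 64.4, 75.7 and 78.6 FPKM on rice straw (log2 fold change 1.29, SE 0.36, limma adjusted p = 0.0157). The call did not hold when replicate 1 or 3 of Chinese fir wood or replicate 1 of rice straw was left out. The 14 became 8 without rice straw replicate 3, 3 without the intermediate libraries and 6 after median-of-ratios scaling (background 9.83% lower, 9.20% higher).

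Over the 4 groups, 58 of the 80 members passed the F test, against 74.0% of all tested genes. The mean level was highest on poplar wood in 57 members, on rice straw in 14, on PDA in 8 and on Chinese fir wood in 1. It was lowest on Chinese fir wood in 48 members, on rice straw in 18, on PDA in 13 and on poplar wood in 1. The highest and lowest groups were not counted over all tested genes, so these counts have no background. Against PDA, 10338 of the 13974 tested genes had a log2 fold change below 0 on Chinese fir wood, as did 64 of the 80 members. The comparisons with PDA share its 3 libraries, and those with poplar wood share the libraries whose spread was wide.

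In the deposited FPKM the tRNA ligases called against PDA were all lower, and they charge histidine, valine or glutamate. After median-of-ratios scaling, 2 of 12 tRNA ligases among the members were called higher on poplar wood than on PDA and 1 lower. These were 16.7% and 8.33%, against 11.3% and 12.6% of all genes. MSF1 (A03996), for phenylalanine, rose by 1.15 (limma adjusted p = 0.0316). MSY1 (A16779), for tyrosine, rose by 1.03 (limma adjusted p = 0.0261). The other tested tyrosine gene, MSY1 (A11767), was not called (0.86, limma adjusted p = 0.0602). In the deposited FPKM, MSY1 (A16779) overlapped PDA, with 7.27 FPKM in poplar wood replicate 1, 28.3 FPKM in replicate 3 and 6.31 to 7.41 FPKM on PDA. In Saccharomyces cerevisiae the genes HTS1 and VAS1 each encode both the cytosolic and the mitochondrial enzyme. In this genome's descriptions, tRNA ligases were named for 20 amino acids, 10 of them with an enzyme described as mitochondrial. For histidine and valine every ligase was described as mitochondrial, whereas the other 8 also had 1 or more ligases not so described. The 30 tested ligases without the mitochondrial label had a median log2 fold change of -1.32 for Chinese fir wood against PDA, of -1.31 for rice straw and of -0.86 for poplar wood. Of these 30, 20 fell and 1 rose on Chinese fir wood (66.7% and 3.33%, against 24.5% and 5.91% of all genes). On rice straw 15 fell and 0 rose by limma (50%, against 14.1%), and on poplar wood 9 fell and 3 rose (30% and 10%, against 17.1% and 8.30%). After median-of-ratios scaling the falls numbered 7 on poplar wood, 15 on rice straw and 8 on Chinese fir wood, with medians of -0.64, -1.03 and -0.79. In that order these were 23.3%, 50% and 26.7%, against 12.6%, 8.25% and 11.0% of all genes. A lysine enzyme of that list, krs1 (A12189), had 34.9, 32.9 and 37.3 FPKM on Chinese fir wood and 108, 111 and 107 FPKM on PDA. On poplar wood hts1 had 15.8, 40.9 and 68.3 FPKM, so that replicate 1 was near the Chinese fir wood level and replicate 3 near that of PDA, and it was not called against PDA. The other glutamate ligase gene, mse1 (A15980), and the ligases for tryptophan, aspartate, asparagine, tyrosine, serine, phenylalanine and methionine were not called against PDA in the deposited FPKM. MSF1 had 12.4, 26.6 and 56.8 FPKM on poplar wood, and 12.9 to 13.8 FPKM on PDA.

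Many members came in pairs. The 82 members had 61 descriptions, and 20 of these were shared by 2 or more members. Of 19 pairs with both members tested, 11 had equal coding lengths and 14 had mean levels within 1.5-fold of each other. Their profiles over the 12 libraries had a median Pearson r of 0.94, and 9 pairs had the same call in all 6 comparisons. The S10 genes RSM10 (A05790 and A10467), both 1176 bp long, had means of 26.6 and 30.5 FPKM and fold changes that differed by at most 0.07. The L17 genes were an exception: at equal length, MRPL17 A12772 had a mean of 1.02 FPKM and A16582 of 7.68 FPKM, and they differed by up to 1.87. The L33 genes differed by up to 1.05: the log2 fold changes of mrpl33 A13962 were 1.19 on poplar wood and 0.57 on rice straw, and those of A19384 were 0.91 and 1.34. Whether the pairs are alleles, copies or different genes, and how reads shared between them were counted, was not stated in the labels, so the values of each pair are uncertain. With the FPKM of members of the same description summed, 14 of 61 rose on poplar wood and 1 fell, against PDA. The share of all genes called was not counted in that fit, so these counts have no background.

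Lists of related genes were counted in the same fit. Of 17 tested genes for other steps of mitochondrial gene expression, 2 rose and 0 fell by limma on poplar wood. These were 11.8% and 0%, against 8.30% and 17.1% of all genes. On Chinese fir wood 0 rose and 2 fell (0% and 11.8%, against 5.91% and 24.5%), with a median of -0.42. On rice straw 1 rose and 2 fell (5.88% and 11.8%, against 6.81% and 14.1%), with a median of -0.37. The mitochondrial RNA polymerase gene RPO41 (A14905), which transcribes mitochondrial DNA, had 48.5, 72.2 and 85.4 FPKM on poplar wood and 15.5, 17.7 and 19.4 FPKM on PDA (log2 fold change 1.88, SE 0.22, limma adjusted p = 4.64e-05). The list of mitochondrial protein import, chosen by description, also holds genes of the outer mitochondrial transmembrane helix translocase MSP1. Of its 32 genes 5 rose and 0 fell on poplar wood (15.6% and 0%, against 8.30% and 17.1% of all genes). Among those that rose was the outer membrane channel gene tom40 (A16086), at 260, 444 and 808 FPKM against 196, 185 and 175 FPKM. Both genes were above PDA in every poplar wood library. The mitochondrial chaperone gene HSP60 (A12537) rose by 1.37 on poplar wood, the only one called there of 8 chaperones and proteases (12.5%, against 8.30% of all genes). On rice straw 3 of the 8 rose (37.5%, against 6.81% of all genes), among them the prohibitin gene phb1 (A04355) by 1.45, with a median of 0.79. On Chinese fir wood 0 were called by limma (5.91% of all genes rose and 24.5% fell), with a median of 0.70. After median-of-ratios scaling 2 of the 8 were called higher on poplar wood (background 11.3%), 6 on rice straw (background 10.0%) and 6 on Chinese fir wood (background 11.7%). Of 72 genes of oxidative phosphorylation, a list that also holds alternative NADH dehydrogenases, 1 rose and 2 fell on poplar wood, with a median of -0.25. These were 1.39% and 2.78%, against 8.30% and 17.1% of all genes. On Chinese fir wood 7 of them rose and 1 fell (9.72% and 1.39%, against 5.91% and 24.5% of all genes), with a median of 0.56. After median-of-ratios scaling 40 of the 72 were called higher and 0 lower by limma (55.6%, against 11.7% and 11.0%), and the median was 1.16. Of 80 cytosolic ribosomal proteins none was called on poplar wood by limma (median 0.27), where 8.30% of all genes rose and 17.1% fell. On Chinese fir wood 37 fell (46.2%, against 24.5% of all genes, median -0.99). After median-of-ratios scaling none of those 37 falls was called by limma, and the median was -0.41.

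**Figure D4:**
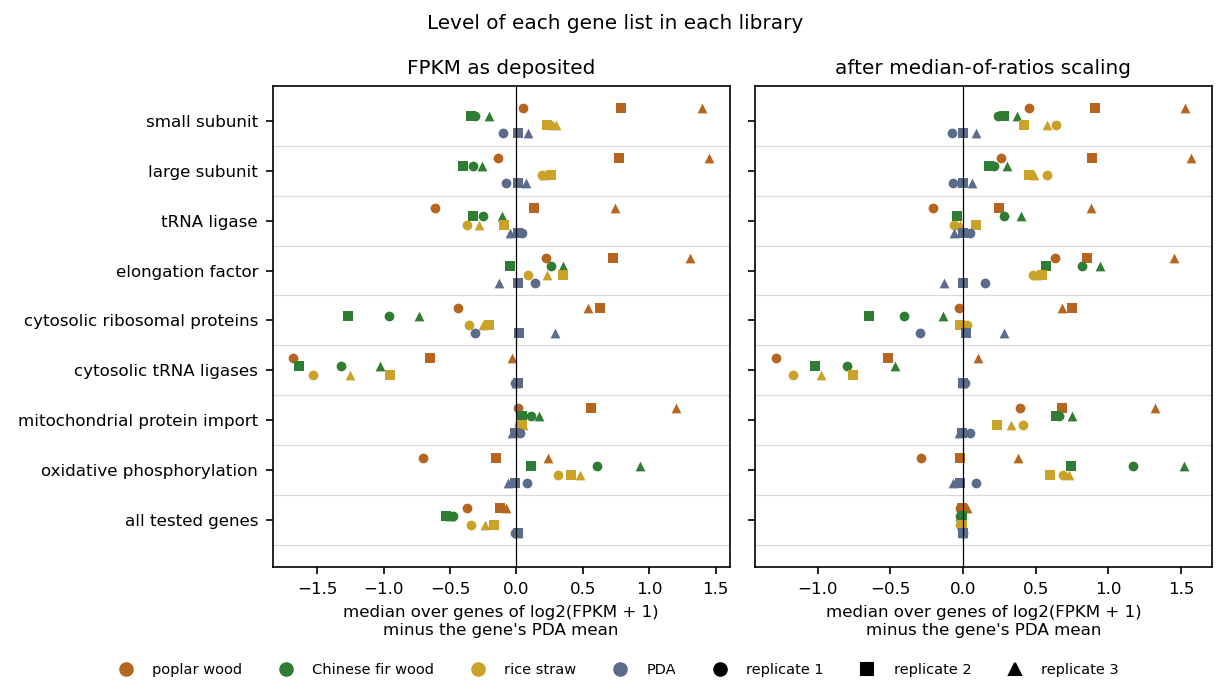
Median over the genes of each list of log2(FPKM + 1) minus the gene's PDA mean, in each library, for the deposited FPKM and after median-of-ratios scaling. In both panels the subunits spread widely over the poplar wood replicates with replicate 3 highest. Oxidative phosphorylation is highest in every Chinese fir wood library only after scaling, at 0.74 to 1.52, and in the deposited FPKM Chinese fir wood replicate 2 (0.11) lies below rice straw (0.31 to 0.48).

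Ratios of summed FPKM within a library do not change with the scaling of libraries. Summed over the 64 tested mitochondrial ribosomal proteins and divided by the sum over oxidative phosphorylation, the ratio was 0.768, 0.917 and 0.998 on poplar wood. On PDA it was 0.412, 0.492 and 0.563, on rice straw 0.417, 0.399 and 0.402, and on Chinese fir wood 0.249, 0.310 and 0.216. Poplar wood was above and Chinese fir wood below all other libraries, and this held with the mean of log2(FPKM + 1) in place of the sums. Replicate 1 of poplar wood, whose members were near the PDA level, was thus above PDA in this ratio. The ratio to cytosolic ribosomal proteins was 0.230, 0.203 and 0.311 on poplar wood and 0.215, 0.183 and 0.161 on PDA. Chinese fir wood gave 0.305, 0.332 and 0.280, and rice straw 0.280, 0.254 and 0.273. Here Chinese fir wood and rice straw lay above PDA without overlap, and poplar wood overlapped PDA. The sum over the small subunit divided by that over the large subunit was 0.634 to 0.648 on rice straw, 0.712 to 0.743 on poplar wood, 0.717 to 0.752 on PDA and 0.784 to 0.802 on Chinese fir wood. With mean log2 levels in place of sums, rice straw, poplar wood and PDA overlapped, and the lowest Chinese fir wood library equalled the highest PDA library. The tRNA ligases divided by the mitochondrial ribosomal proteins gave 0.0582 to 0.073 on PDA and 0.0329 to 0.0493 elsewhere. That separation rested on hts1, both VAS1 genes and mse1 (A04399), left out here after their values were seen. With the other 9 ligases the ratio ran from 0.0292 to 0.0347 for PDA, whereas Chinese fir wood gave 0.0342 to 0.0391, rice straw 0.026 to 0.0306 and poplar wood 0.0214 to 0.029. These ratios are given as a description, with no test.

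**Figure D5:**
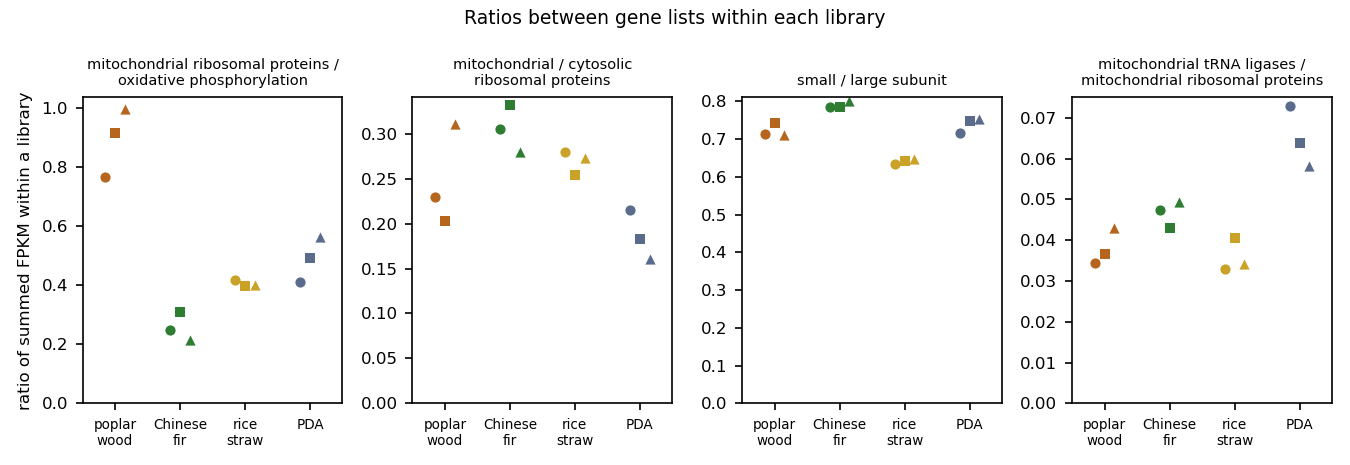
Ratios of summed FPKM between gene lists within each library (circle, square and triangle for replicates 1, 2 and 3), on axes that start at 0. Mitochondrial ribosomal proteins relative to oxidative phosphorylation are highest in the 3 poplar wood libraries and lowest in the 3 Chinese fir wood libraries.

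The members followed a common profile to different degrees. Each member's log2 profile was correlated with the median profile of the other members over the 12 libraries, which share the poplar wood replicates. The median Pearson r was 0.83, from -0.09 to 0.98, with 24 of 80 members at 0.9 or more and 10 under 0.5. The small subunit genes RSM24 (A04066) and SPBC16A3.14 (A07768) were closest to it, at 0.98 and 0.97. Farthest were the glutamate ligase gene mse1 (A15980) at -0.09, and mrpl19 (A08451) at 0.06. Over the 9 libraries without poplar wood the median was 0.64, and 35 members were under 0.5.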

How the data were processed

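The deposited table held FPKM for each gene in 12 libraries, computed by the authors before deposit and kept per replicate, with gene descriptions and symbols. The programs named were fastp, HISAT2, HTSeq and DESeq2, per the submitters' processing notes. No version, role, genome build or treatment of multiply mapped reads is given in the sources used here. No sequence is shown, since no reference was used.

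FPKM values are multiples of what 1 read is worth, so reads were worked back from their steps and from whole-number gene lengths, taken as multiples of 3 (coding lengths), within 0.001 for 16059 genes. At the median length of 1413 bp, a read counted for 0.0227 to 0.0302 FPKM. These reads gave the depths and served the voom alternative.

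Values were taken as log2(FPKM + 1), which understates the change of low genes, for the 13974 genes that reached 1 FPKM in 3 or more libraries. A single limma model of the 4 groups (eBayes with trend, 8 residual degrees of freedom) gave 6 contrasts and an F test, with Benjamini-Hochberg adjustment over all tested genes. The fit was tried on simulated data in which each gene had 1 spread in all 4 groups, with the adjusted p alone. That trial does not cover the wider spread of the members on poplar wood or the fold threshold. Named genes are up to 8 called members with the largest rise and fall per comparison, the 2 most abundant of each role, every elongation factor, called tRNA ligases, untested members, members that share a description and, of related lists, the most abundant called ones. The genes with the highest and lowest correlation with the members' profile and the extremes of the poplar wood ratio were named after their values were seen. Members and lists were chosen with earlier results of these data known. Libraries were not paired by replicate number. The model was fitted in R 4.3.3 (limma 3.58.1). Tables and plots were made in Python 3.11.15 (pandas 2.3.3, numpy 2.4.6, scipy 1.17.1, matplotlib 3.10.9).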

Additional observations from a re-analysis of the deposited data

How the results depend on the processing

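Against PDA, the number of members called higher on poplar wood was 15, and 28 after median-of-ratios scaling, 8 with only the 2 groups compared in the fit, 7 without the 3 intermediate libraries and 32 with no fold threshold. Leaving out each library in turn gave 3 to 43. The number called lower there was 1, and 0 with only the 2 groups, 2 with no fold threshold and 0 to 3 with a library left out. On Chinese fir wood 0 were higher, and 1 after median-of-ratios scaling. The 8 lower became 4 after that scaling, 4 without the intermediate libraries and 5 to 8 with a library left out. On rice straw the 3 higher became 16 after scaling, 0 without the intermediate libraries, 11 with no fold threshold and 2 to 3 with a library left out, and the 6 lower became 3, 2, and 3 to 6 in the same order without the threshold. Between poplar wood and Chinese fir wood the 43 higher became 12 after scaling, 25 with only the 2 groups, 24 without the intermediate libraries and 14 to 54 with a library left out. Between poplar wood and rice straw the 18 higher became 10 without the intermediate libraries, 31 with no fold threshold and 8 to 35 with a library left out. The 0 lower became 2 with no fold threshold and 0 to 2 with a library left out. Between Chinese fir wood and rice straw the 1 higher became 0 without the intermediate libraries and 0 to 1 with a library left out, and the 14 lower became 6 after scaling, 3 without the intermediate libraries and 8 to 15 with a library left out. The F test passed 58 members, 25 without the intermediate libraries and 48 to 76 with a library left out. The cause of these changes was not tested, beyond fewer libraries being fitted where some are left out. Among the alternative fits, the share of all genes called was counted only after median-of-ratios scaling. It was not counted for fits that left libraries out or held only 2 groups. Without the fold threshold it was counted only between poplar wood and rice straw, where 24.6% of all genes were higher and 22.2% lower. The other counts without that threshold therefore have no background.

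The other counts stayed within 1.5 times under a pseudocount of 0.1 or 5, no filter or a filter at 5 FPKM, TPM, array weights, voom on the worked-back reads, and sums of members with 1 description (an alternative chosen after seeing the data). When 77 fold changes of named genes were recomputed under each alternative, 1641 of the recomputed values kept their side of the threshold, 127 lost a call, 2 gained one and 1 changed sign: MRPL17 (A16582) on Chinese fir wood against PDA, at 0.08 with array weights, which ran from 0.0469 to 76.2 and were poorly determined. Same-numbered libraries did not all deviate together: over 18 pairs the correlations ran from -0.19 to 0.33. With replicate number as a block the counts against PDA were 15 higher and 1 lower on poplar wood, 0 and 8 on Chinese fir wood, and 3 and 6 on rice straw. Depth does not limit most members, but mrpl19 (A08451), MRPL17 (A12772) and 93G11.130 (A10079) had means under 5 FPKM.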
